A study of Mus musculus with 16 samples.

Results

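The genes described here encode transporters, channels and a regulator of the colonic epithelium, most of them for sodium or chloride. They are the 10 genes *Slc26a3*, *Slc26a2*, *Slc9a3*, *Scnn1a*, *Scnn1b*, *Scnn1g*, *Atp12a*, *Fxyd4*, *Cftr* and *Slc12a2*, taken by name out of 22396 gene symbols measured. The rule uses no measured value, but the genes were proposed with earlier results of these data known. RNA was sequenced from EpCAM+ (epithelial) cells sorted from the distal colon of 16 mice, 1 library per mouse. The mice were 4 controls and 5 mice labelled knockout that were given water, and 3 controls and 4 mice labelled knockout that were given dextran sulfate sodium (DSS), an agent that injures the colonic epithelium, at 3% in the drinking water. By the labels the treatment lasted 6 days and every mouse was dissected on day 12. By the study's methods, cells of DSS-treated mice were sorted from injured regions, which were set apart from unaffected colon. All mice carried floxed alleles of *Tnfrsf1b*, the gene of TNFR2 (Tnfr2-f/f), and knockout-labelled mice also carried Vil1::Cre, a Cre recombinase driven by the villin promoter in intestinal epithelium. All 7 DSS-treated mice were female, 2 from cage c and 5 from cage d. Of the water-treated mice, the 4 males came from cage a and the 5 females from cage b, which makes sex and cage one and the same contrast. Water-treated and DSS-treated mice shared no cage, and treatment and cage cannot be told apart.

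The distal colon takes up sodium chloride through coupled apical exchangers at the surface and through the epithelial sodium channel (ENaC), which aldosterone regulates. Crypt cells can secrete chloride instead: a basolateral cotransporter brings it into the cell and an apical channel lets it out. Loss of absorption during colitis contributes to diarrhea. Among the genes grouped here as absorptive, *Slc26a3* encodes the apical chloride-bicarbonate exchanger and *Slc9a3* the apical sodium-proton exchanger. *Slc26a2* encodes a sulfate transporter of the same family as *Slc26a3*. *Scnn1a*, *Scnn1b* and *Scnn1g* encode the alpha, beta and gamma subunits of ENaC. *Atp12a* encodes the catalytic subunit of the colonic proton-potassium pump, and *Fxyd4* a small membrane protein that regulates the sodium pump and is induced by aldosterone. The secretory genes are *Cftr*, which encodes the apical chloride channel of secretion, and *Slc12a2*, which encodes the basolateral sodium-potassium-chloride cotransporter.

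The starts of *Slc26a3*, *Fxyd4* and *Cftr* are shown because, of the genes with a promoter in the table used here, these 3 did not overlap between treatments in either genotype label. Each is given 5′ to 3′ on the strand of the gene, as the 300 bases that run to 50 bases past the first base of the gene in RefSeq (GRCm38.p6), with the CpG dinucleotides in capicals. In each of the 3, the first base is also the first base of a transcript listed in the tables. The *Slc26a3* window is chr12:31437969-31438268 on the plus strand, the *Fxyd4* window is chr6:117937286-117937585 on the minus strand and the *Cftr* window is chr6:18170437-18170736 on the plus strand.
Slc26a3: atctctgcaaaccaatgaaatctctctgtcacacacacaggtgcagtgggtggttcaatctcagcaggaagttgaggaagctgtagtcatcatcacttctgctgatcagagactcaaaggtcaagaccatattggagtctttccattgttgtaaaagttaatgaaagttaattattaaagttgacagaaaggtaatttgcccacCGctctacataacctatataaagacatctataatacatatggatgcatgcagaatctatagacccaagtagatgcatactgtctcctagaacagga
Fxyd4: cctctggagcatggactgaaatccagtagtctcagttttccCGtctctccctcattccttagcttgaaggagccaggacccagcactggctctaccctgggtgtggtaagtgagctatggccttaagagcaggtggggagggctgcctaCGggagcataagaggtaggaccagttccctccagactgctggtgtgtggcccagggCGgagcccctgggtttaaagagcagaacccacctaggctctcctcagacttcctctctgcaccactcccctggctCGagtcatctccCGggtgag
Cftr: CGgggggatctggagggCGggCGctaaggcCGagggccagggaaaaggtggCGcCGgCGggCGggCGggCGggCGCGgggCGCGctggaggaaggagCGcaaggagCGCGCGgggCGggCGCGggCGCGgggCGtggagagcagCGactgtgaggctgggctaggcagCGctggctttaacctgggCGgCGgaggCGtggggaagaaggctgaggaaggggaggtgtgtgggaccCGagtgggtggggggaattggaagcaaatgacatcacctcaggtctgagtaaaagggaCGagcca
The *Slc26a3* window held 1 CpG and 39.3% G or C, and the *Fxyd4* window held 5 CpG and 58.7% G or C. The *Cftr* window held 31 CpG and 71.3% G or C, against medians of 7 CpG and 52.7% over all 32851 promoters of the table. The table held 6 of the 10 genes, and the remaining windows had 25 CpG for *Slc9a3*, 10 for *Scnn1b* and 18 for *Scnn1g*. Of the 6 windows, that of *Slc26a3* held the half-site of the corticosteroid receptors, AGAACA, once on the printed strand, 41 bases after the first base of the gene, and the other 5 held it on neither strand. This motif was present in 19.0% of all promoters of the table. The HNF4 site CAAAGTCCA was in none of the 6 windows on either strand and in 0.475% of all promoters. These are matches of letters only and say nothing about binding.

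In the GENCODE annotation of GRCm38 all 10 genes are protein-coding. *Slc26a3* (ENSMUSG00000001225) lies on chromosome 12 from 31390871 to 31473917, and *Slc9a3* (ENSMUSG00000036123) on chromosome 13 from 74121457 to 74169442. *Scnn1g* (ENSMUSG00000000216) and *Scnn1b* (ENSMUSG00000030873) are neighbors on chromosome 7, from 121734479 to 121768475 and from 121865038 to 121918514. *Scnn1a* (ENSMUSG00000030340) lies on chromosome 6 from 125320659 to 125344943. *Fxyd4* (ENSMUSG00000004988) and *Cftr* (ENSMUSG00000041301) also lie on chromosome 6, from 117933559 to 117937692 and from 18170687 to 18322768. *Atp12a* (ENSMUSG00000022229) lies on chromosome 14 from 56365068 to 56388550. Values are TPM, kallisto's estimate of transcript abundance, corrected for transcript length and relative to the whole library, and a gene's value is the sum of its listed transcripts. Only principal isoforms were listed, 3 for *Fxyd4* and 1 for each of the other 9 genes, and reads assigned to any further isoform are not counted. Of the 31-base windows of the listed transcript, 0.0159% are absent from other transcripts of the gene for *Cftr*, 0.0813% for *Slc9a3*, 2.61% for *Scnn1b* and 8.24% for *Scnn1a*, so that these TPM can pass between isoforms. The share was 23.8% for *Slc26a3*, 58.5% for *Slc26a2*, 90.9% for *Atp12a*, 99.2% for *Slc12a2* and 100% for *Scnn1g*. For the 3 listed transcripts of *Fxyd4* it was 0%, 33.4% and, for the most abundant, 5.38%, so that its TPM can pass between isoforms as well.

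Each treatment had its own table, scaled apart from the other, and the median gene was higher by 0.32 (log2) in the DSS-treated controls and by 0.31 in DSS-treated, knockout-labelled mice. TPM compared between treatments were therefore brought to one scale by median-of-ratios factors over the 16 mice, after which these medians were 0.01 and 0.00, and no test was run between the tables. Depth is unknown from TPM, and the summed TPM of a library lay between 487469 and 861109. The targeted gene, *Tnfrsf1b*, was not lower in the libraries labelled knockout beyond the spread between mice. As deposited it had 22.2, 13.9 and 13.3 TPM in the DSS-treated controls and 27.0, 13.5, 15.2 and 17.7 TPM in DSS-treated, knockout-labelled mice. In water it had 11.1 to 15.5 TPM in the controls and 9.23 to 14.8 TPM in knockout-labelled mice, so genotypes are given by label. The study's floxed allele has loxP sites around a single exon, whereas the TPM here are of listed transcripts and not of single exons. Whether this bears on the levels was not tested. By flow cytometry and RT-qPCR, the study reported reduced TNFR2 in EpCAM+ cells of such knockout mice. The 7 epithelial markers were present in every group, with summed levels of 5118 to 7056 TPM in water and 4000 to 6144 TPM after DSS. The libraries also differed in other cell types. Over 14 leukocyte markers the summed level was 982 to 1919 TPM in the water-treated and 22.5 to 60.1 TPM in the DSS-treated mice, and *Cd3e*, *Cd3g*, *Cd2*, *Cd79b* and *Ms4a1* were among those that stayed below 1 TPM in every DSS-treated mouse. Over 6 plasma cell markers it was 649 to 16510 TPM in water and 109.5 to 520.1 TPM after DSS, and over 10 stromal markers 346 to 1029 TPM and 111 to 504 TPM. One library stood apart: DSS-treated control replicate 3 had 121 TPM of *Hoxb13*, a gene of the most distal colon, against 26.8 to 50.1 TPM in the other 6 DSS-treated mice and 97.2 to 174.5 TPM in the water-treated mice. It also had 6622 TPM over 7 goblet and deep crypt secretory markers, against 1061 to 2149 TPM in the other 6 and 4781 to 8030 TPM in the water-treated mice.

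In the water-treated mice, *Slc26a3* was the most abundant of the 10 genes, with a median of 127 rescaled TPM (range 99.6 to 194, n = 9). It was followed by *Slc12a2* at 61.3 TPM (39.9 to 74.7), *Slc26a2* at 45.2 (37.9 to 71.8), *Fxyd4* at 38.4 (18.7 to 56.4) and *Atp12a* at 37.9 (17.5 to 57.9). *Scnn1a* had a median of 24.9 TPM (18.4 to 33.9), *Cftr* 23.8 (20.3 to 29.3), *Scnn1b* 1.52 (0 to 4.25), *Scnn1g* 0.694 (0 to 1.54) and *Slc9a3* 0 (0 to 1.43). The range of *Slc26a3* lay above that of *Slc12a2*, the range of *Cftr* lay above that of *Scnn1b*, and the ranges of all other neighbors in this order overlapped. After DSS the order began with *Slc12a2*, at a median of 142 TPM (range 95.9 to 169, n = 7). *Slc26a3* followed at 60.0 TPM (46.7 to 101), *Cftr* at 59.4 (32.6 to 72.2) and *Slc26a2* at 53.6 (39.0 to 66.5). The ranges of these 4 neighbors overlapped, and all 4 lay above *Scnn1a* at 10.9 TPM (7.80 to 20.1), *Atp12a* at 6.24 (4.17 to 17.8) and *Fxyd4* at 4.32 (1.34 to 24.1). *Scnn1b* at 0.841 TPM, *Scnn1g* at 0.177 and *Slc9a3* at 0 came last.

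**Figure D1:**
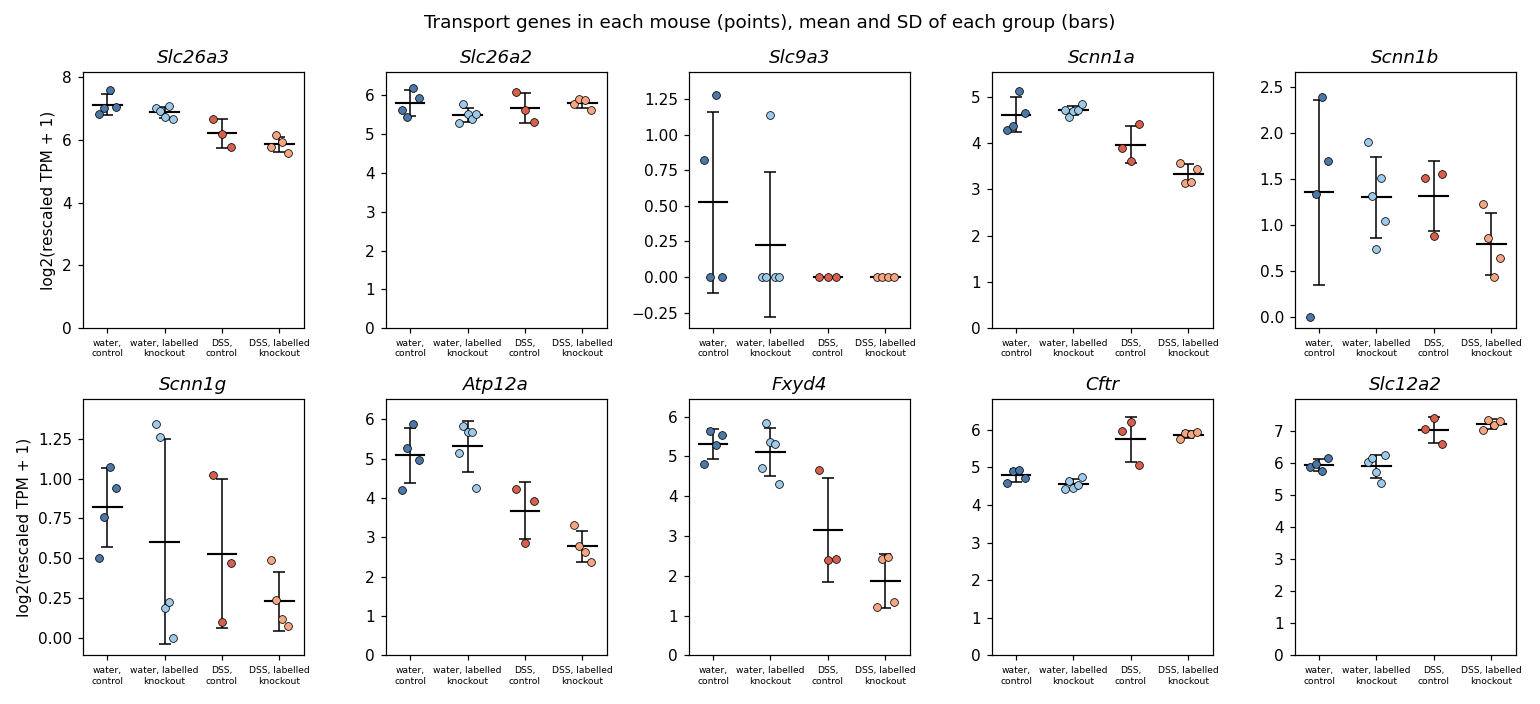
Level of each of the 10 transport genes in every mouse, as log2(rescaled TPM + 1) on an axis of its own for each gene. Points are mice, the long bar is the group mean and the whiskers are the SD (n = 4, 5, 3 and 4 from left to right). *Slc26a3*, *Atp12a* and *Fxyd4* sit lower in the DSS-treated groups, *Cftr* and *Slc12a2* sit higher, and *Slc26a2* overlaps between treatments.

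The first comparison asked how the transport genes differed between the injured and the uninjured epithelium. The genes of chloride secretion were higher after DSS in every mouse, and genes of absorption were lower or overlapped. In the controls, *Slc26a3* and *Fxyd4* were lower and *Cftr* and *Slc12a2* higher without overlap, 2 of 10 genes in each direction. On the TPM as deposited 0 of the 10 were lower without overlap in the controls, and with each mouse scaled to 6 epithelial genes 1 was, *Scnn1a*. Over the 11247 genes whose mean reached 1 TPM, the controls did not overlap in 14.1% with lower and 10.3% with higher values after DSS. Among knockout-labelled mice, *Slc26a3*, *Scnn1a*, *Atp12a* and *Fxyd4* were lower and *Cftr* and *Slc12a2* higher without overlap, 4 and 2 of 10, against 18.0% and 17.3% of all genes. Within a label, the counts of 2 of 10 were near these shares. The shares are over genes whose mean reached 1 TPM, as 8 of the 10 did. With both genotypes together, *Cftr* and *Slc12a2* were above the range of the 9 water-treated mice in all 7 DSS-treated mice, as were 4.42% of all genes, and none of the 10 was wholly below it (6.96% of all genes). Over the 10 genes the median difference (log2) was −0.41 for controls and −0.44 for knockout-labelled mice, against 0.01 and 0.00 over the 11247 genes. The sets are not alike, since the 10 include *Slc9a3* and *Scnn1g*, whose means were below 1 TPM. The mice of a treatment differ between the genotypes, but the tables and scaling are shared.

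**Figure D2:**
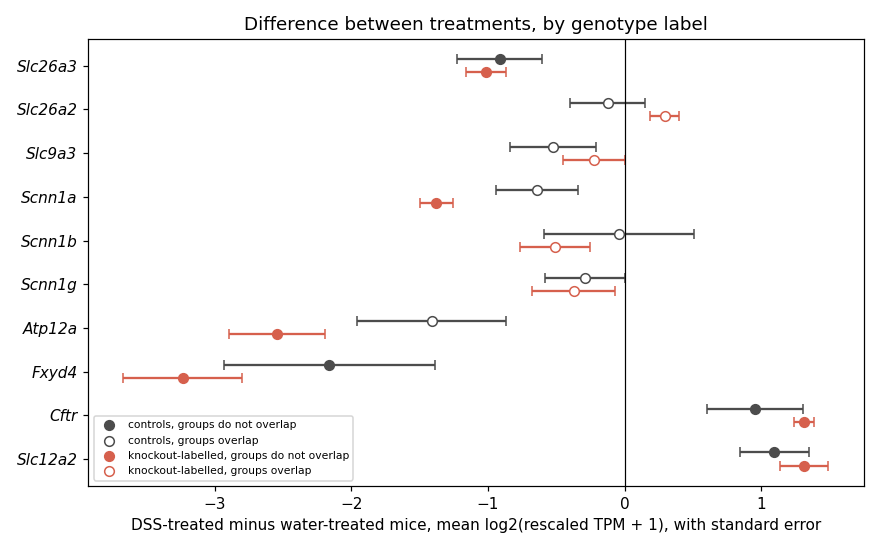
Difference between DSS-treated and water-treated mice for each transport gene, as the difference of mean log2(rescaled TPM + 1) with its standard error, in the controls (3 against 4 mice) and in knockout-labelled mice (4 against 5 mice). Filled points mark genes whose treatments did not overlap. *Cftr* and *Slc12a2* lie to the right of 0 and *Slc26a3* and *Fxyd4* to the left in both genotypes.

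The apical exchanger gene *Slc26a3* had 114, 127, 194 and 131 rescaled TPM in the water-treated controls and 101, 71.7 and 53.4 TPM in the DSS-treated controls. Knockout-labelled mice had 129, 120.0, 106, 133 and 99.6 TPM in water and 54.0, 70.4, 60.0 and 46.7 TPM after DSS. Within a genotype label every DSS-treated mouse was below every water-treated mouse, and across the labels DSS-treated control replicate 1 reached just above the lowest water-treated mouse. The mean was 141 ± 35.7 TPM (SD, n = 4) in the water-treated and 75.4 ± 24.1 TPM (n = 3) in the DSS-treated controls, a log2 difference of −0.91 (standard error 0.31). In knockout-labelled mice it was 117 ± 14.4 TPM (n = 5) and 57.7 ± 10.0 TPM (n = 4), a log2 difference of −1.02 (standard error 0.15). On the TPM as deposited these differences were −0.55 and −0.66, and the controls overlapped. By rank among the 11247 genes of a mouse, *Slc26a3* stayed abundant, at percentiles 94.1 to 97.1 in water and 90.0 to 95.5 after DSS. Fewer cells of a type and less RNA per cell cannot be told apart in these bulk samples.

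The related sulfate transporter gene *Slc26a2* did not follow *Slc26a3*. It had 47.8, 42.6, 71.8 and 60.4 TPM in the water-treated controls and 66.5, 48.0 and 39.0 TPM in the DSS-treated controls, and these ranges overlapped widely. Knockout-labelled mice had 37.9 to 53.8 TPM in water and 48.2 to 58.8 TPM after DSS. The log2 difference was −0.12 (standard error 0.28) in the controls, where it was 0.23 on the TPM as deposited, and 0.29 (standard error 0.10) in knockout-labelled mice. As deposited, knockout-labelled mice had 34.6 to 48.0 TPM in water and 55.5 to 68.2 TPM after DSS, without overlap. Their percentiles within a mouse, 85.5 to 89.4 in water and 90.4 to 92.2 after DSS, did not overlap either. The ratio of both genes within a mouse depends little on how a table was scaled. *Slc26a3* exceeded *Slc26a2* by 1.10 to 1.74 on the log2(TPM + 1) scale in the 9 water-treated mice and by −0.05 to 0.60 in the 7 DSS-treated mice, without overlap.

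The sodium-proton exchanger gene *Slc9a3* was listed at 0 in 5 of 9 water-treated mice and in all 7 DSS-treated mice. The other 4 water-treated mice had 0.764 and 1.43 TPM (control replicates 1 and 3), 1.20 TPM (labelled knockout replicate 3) and 0.000164 TPM (labelled knockout replicate 1). Because almost none of its listed transcript is unique among the isoforms of the gene, a listing at 0 can be a failed assignment, and no fold is given. Its level could therefore not be compared between treatments.

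ENaC was represented mainly by its alpha subunit. *Scnn1a* had 18.4, 19.7, 33.9 and 24.2 TPM in the water-treated controls and 13.8, 11.2 and 20.1 TPM in the DSS-treated controls. The highest DSS-treated control, replicate 3, was the library that stood apart, and the other DSS-treated controls were below all 4 water-treated ones. Knockout-labelled mice had 25.1, 22.7, 24.9, 25.4 and 27.7 TPM in water and 10.9, 7.80, 7.91 and 9.92 TPM after DSS, with no overlap. The log2 difference was −0.64 (standard error 0.30) in the controls, −0.86 in them without the mice of cage c, and −1.38 (standard error 0.12) in knockout-labelled mice. Without DSS-treated control replicate 3, *Scnn1a* was lower in all 6 remaining DSS-treated mice than in all 9 water-treated mice, as were 12.1% of all genes.

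The beta and gamma subunit genes were near the lower limit of these tables. *Scnn1b* had 0, 1.52, 4.25 and 2.24 TPM in the water-treated controls and 1.84, 0.841 and 1.94 TPM in the DSS-treated controls, and 0.672 to 2.72 and 0.356 to 1.34 TPM in knockout-labelled mice. *Scnn1g* had 0.418 to 1.10 TPM and 0.0687 to 1.03 TPM in the controls, and 0 to 1.54 and 0.0512 to 0.403 TPM in knockout-labelled mice. Treatments overlapped for both genes and both labels. Within a mouse, *Scnn1b* differed from *Scnn1a* by −4.15 to −2.70 in water and by −2.92 to −2.37 after DSS on the log2(TPM + 1) scale, and these ranges overlapped.

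The proton-potassium pump gene *Atp12a* was among the genes lower after DSS. It had 17.5, 37.9, 57.9 and 30.2 TPM in the water-treated controls and 17.8, 6.24 and 14.2 TPM in the DSS-treated controls, with an overlap between water-treated replicate 1 and DSS-treated replicate 1. Knockout-labelled mice had 34.3, 55.8, 50.01, 50.6 and 18.2 TPM in water and 8.87, 5.84, 5.23 and 4.17 TPM after DSS, without overlap. The log2 difference was −1.41 (standard error 0.54) in the controls and −2.55 (standard error 0.35) in knockout-labelled mice, where the mean TPM was 6.92 times as high in water. The difference between these labels was not tested.

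*Fxyd4* had the largest difference of the 10 genes. It had 27.0, 49.2, 37.8 and 45.2 TPM in the water-treated controls and 24.1, 4.26 and 4.32 TPM in the DSS-treated controls. Knockout-labelled mice had 25.1, 56.4, 39.8, 38.4 and 18.7 TPM in water and 1.34, 4.33, 4.60 and 1.52 TPM after DSS. One DSS-treated control, replicate 1, was near the water-treated mice and above the lowest of the other label, and the other 6 DSS-treated mice were below 5 TPM. On the TPM as deposited that mouse, at 27.0 TPM, overlapped the water-treated controls, the lowest of which had 24.5 TPM. The log2 difference was −2.16 (standard error 0.77) in the controls and −3.24 (standard error 0.43) in knockout-labelled mice. These TPM rest on few reads, since the authors' mean natural log of the scaled estimated counts of its main transcript corresponds to 28.1 counts in water and 4.84 after DSS. Counts per TPM differed between the treatments, so these counts do not compare levels. *Fxyd4* and *Atp12a* were both lower after DSS, but within a mouse *Fxyd4* minus *Atp12a* ranged from −0.60 to 0.59 in water and from −2.15 to 0.42 after DSS on the log2(TPM + 1) scale, with overlap.

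The secretory genes went the other way. *Cftr* had 23.0, 29.0, 29.3 and 25.3 TPM in the water-treated controls and 60.8, 72.2 and 32.6 TPM in the DSS-treated controls. Knockout-labelled mice had 20.3, 23.8, 20.8, 22.0 and 25.9 TPM in water and 52.7, 59.4, 57.5 and 60.2 TPM after DSS. DSS-treated control replicate 3 was the lowest DSS-treated mouse and still above all 9 water-treated mice. The log2 difference was 0.96 (standard error 0.35) in the controls and 1.31 (standard error 0.07) in knockout-labelled mice, and the mean TPM was 2.07 and 2.55 times as high after DSS. By rank within a mouse, *Cftr* was at percentiles 74.3 to 82.0 in water and 85.1 to 93.6 after DSS.

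*Slc12a2* had 56.8, 61.3, 52.1 and 70.2 TPM in the water-treated controls and 132, 169 and 95.9 TPM in the DSS-treated controls. Knockout-labelled mice had 63.4, 69.3, 51.4, 39.9 and 74.7 TPM in water and 128, 161, 142 and 157 TPM after DSS. The lowest DSS-treated mouse, again control replicate 3, was above the highest water-treated mouse. The log2 difference was 1.09 (standard error 0.25) in the controls and 1.31 (standard error 0.18) in knockout-labelled mice, and the mean TPM was 2.20 and 2.46 times as high after DSS. The listed transcript of *Slc12a2* is almost wholly unique among the isoforms of the gene, unlike that of *Cftr*.

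Ratios within a mouse showed the balance of absorption and secretion genes without any rescaling. *Slc26a3* exceeded *Slc12a2* in all 9 water-treated mice, by 0.41 to 1.87 on the log2(TPM + 1) scale, and was below it in all 7 DSS-treated mice, with differences of −1.73 to −0.38. *Slc26a3* exceeded *Cftr* by 1.90 to 2.68 in water and differed from it by −0.36 to 0.73 after DSS, again without overlap. *Cftr* and *Slc12a2* were both higher after DSS, and their ratio overlapped between treatments, at −1.59 to −0.81 in water and −1.53 to −1.11 after DSS. These contrasts were not tested because they cross the tables.

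**Figure D3:**
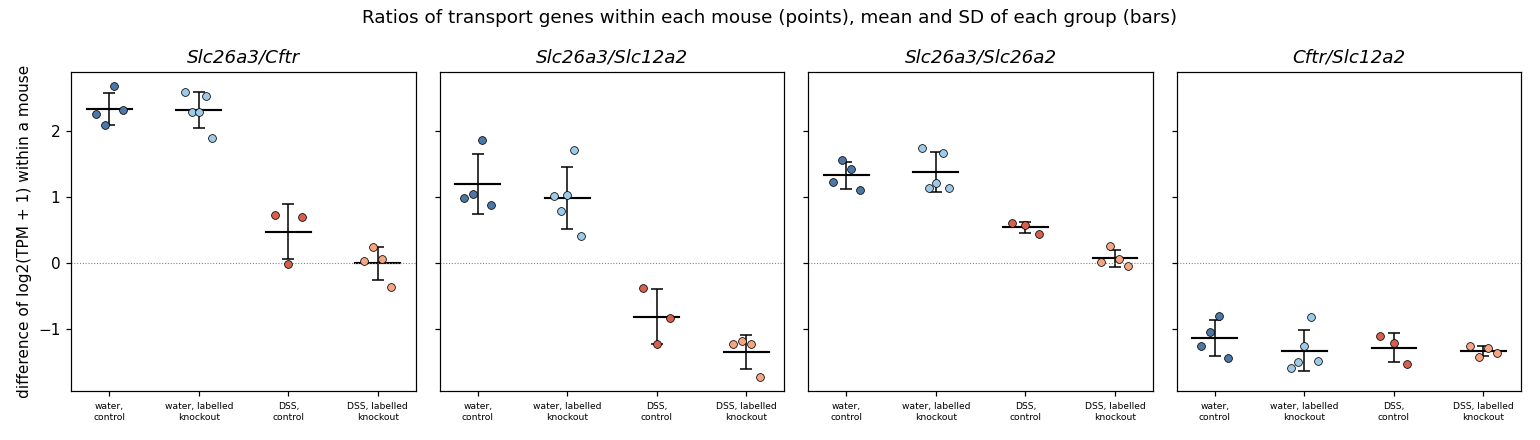
Ratios of pairs of transport genes within each mouse, as the difference of their log2(TPM + 1), with points for mice, the group mean as a bar and the SD as whiskers (n = 4, 5, 3 and 4 from left to right). The ratios of *Slc26a3* to *Cftr*, *Slc12a2* and *Slc26a2* do not overlap between treatments, and that of *Cftr* to *Slc12a2* does.

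Markers of position along the crypt and the colon differed between the same mice. The summed level of 8 surface colonocyte markers was 719 to 1131 TPM in water and 319 to 498 TPM after DSS, with all 8 reaching 1 TPM in both. That of 7 crypt progenitor markers was 115 to 219.6 TPM in water and 199.9 to 278 TPM after DSS, with all 7 reaching 1 TPM. The 5 distal colon markers summed to 127 to 209 TPM in water and 53.1 to 145 TPM after DSS, with *Hoxd12* below 1 TPM in every DSS-treated mouse. The 7 goblet and deep crypt secretory markers, whose values are given above, were below the water range in 6 of 7 DSS-treated mice and within it in control replicate 3. The part of these cell types and positions, and of the leukocytes given above, in the differences of the transport genes was not tested. Scaling each mouse to 6 epithelial genes in place of all genes left *Cftr* and *Slc12a2* higher without overlap in both labels, and left *Slc26a3*, *Scnn1a*, *Atp12a* and *Fxyd4* lower without overlap in knockout-labelled mice. In the controls this scaling left *Scnn1a* alone lower without overlap. After it the median gene was still higher by 0.21 (log2) in the DSS-treated controls and by 0.19 in DSS-treated, knockout-labelled mice. The scaling therefore leaned toward higher values after DSS. Of its 6 genes, *Epcam* and *Cdh1* had higher medians of rescaled TPM after DSS, and *Krt8*, *Krt18*, *Krt19* and *Cldn7* had lower ones.

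Other genes of ion transport were read from 7 lists with 52 genes, of which 45 reached a mean of 1 TPM. In the controls 4 of 45 were lower and 5 higher after DSS without overlap, against 14.1% and 10.3% of all genes. For knockout-labelled mice 9 were lower and 6 higher, against 18.0% and 17.3% of all genes, so that these counts were near the background. Without overlap in either label, 4 were lower (*Slc9a3r1*, *Ano1*, *Fxyd5* and *Guca2a*) and 2 higher (*Slc4a7* and *Stk39*), against 8.51% and 6.04% of all genes. Over the 45 genes the median difference was −0.12 for controls and −0.16 for knockout-labelled mice. The other 39 overlapped in at least 1 label.

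Of 8 exchangers and scaffold proteins measured, 1 was lower and 1 higher in both labels. *Slc9a3r1*, a scaffold of apical transporters, had 70.2 to 85.8 TPM in the 9 water-treated mice and 35.5 to 56.3 TPM in the 7 DSS-treated mice. *Slc4a7*, a sodium bicarbonate cotransporter, had 0.529 to 4.34 TPM and 4.63 to 6.51 TPM. Neither gene overlapped between treatments. Of 8 chloride and potassium channels and potassium-chloride cotransporters, 1 was lower: *Ano1*, a calcium-activated chloride channel, had 24.98 to 37.4 TPM in water and 10.4 to 21.6 TPM after DSS, opposite in direction to *Cftr*.

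Of 4 sodium pump subunits and FXYD proteins, *Fxyd5*, a regulator of the sodium pump that leukocytes also express, was lower, with 45.4 to 146 TPM in water and 3.75 to 18.4 TPM after DSS. The leukocyte markers given above were lower in the same mice, and their part in its level was not tested. Of 8 genes of corticosteroid response and ENaC regulation, 1 was higher: *Stk39*, a kinase that activates *Slc12a2*'s protein, had 3.42 to 12.9 TPM in water and 13.3 to 18.01 TPM after DSS. None of 7 ENaC-cleaving proteases and inhibitors and none of 4 sodium-coupled nutrient transporters was without overlap in both labels. Of 6 genes of guanylin and secretagogue receptors, *Guca2a*, which encodes the secreted peptide guanylin, was lower, with 761 to 1382 TPM in water and 260 to 734 TPM after DSS.

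**Figure D4:**
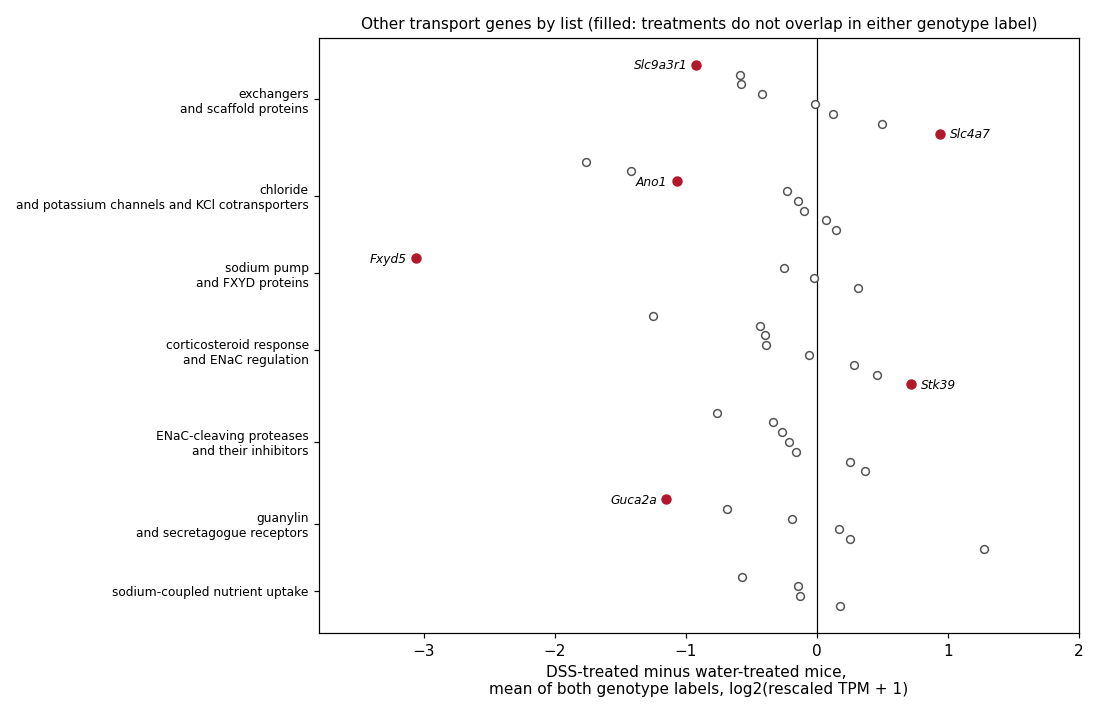
Difference between DSS-treated and water-treated mice for the 45 other transport genes, by list, as the mean over both genotype labels of the difference in log2(rescaled TPM + 1). Filled and named points are the 6 genes whose treatments did not overlap in either label, 4 to the left of 0 and 2 to the right, and open points are the other 39.

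The next comparison asked whether knockout-labelled mice differed from controls of the same treatment. After DSS, limma tested 10899 genes and called 1 of them, *Tra2a* (0.00918%), which is named here after its value was seen. None of the 8 transport genes tested was called, and 2 of the 8, *Scnn1a* and *Atp12a*, had an unadjusted p under 0.05, as did 289 of all genes tested (2.65%). The lowest of their unadjusted p-values was for *Scnn1a*, which had 15.5, 12.5 and 24.4 TPM as deposited in the controls and 12.8, 9.05, 9.05 and 11.4 TPM in knockout-labelled mice. These overlapped, and the log2 fold change was −0.63 (standard error 0.24, limma p = 0.0304, adjusted p = 1.00; exact permutation p = 0.0571, where 3 mice against 4 allow no less than 0.0286). Without DSS-treated control replicate 3 the log2 fold change of *Scnn1a* was −0.38. *Atp12a* had 14.7 ± 6.87 TPM (SD, n = 3 controls) against 6.99 ± 2.41 TPM (n = 4), which is −0.90 in log2 fold change (standard error 0.37, limma p = 0.0432 and 1.00 after adjustment, exact permutation p = 0.0857). *Fxyd4* had 12.3 ± 12.7 and 3.40 ± 2.02 TPM, or −1.31 in log2 fold change (standard error 0.62, limma p = 1.00 after adjustment, exact permutation p = 0.143). The highest of these mice was DSS-treated control replicate 1, at 27.0 TPM as deposited, and without it the log2 fold change of *Fxyd4* was −0.57. The other 5 genes tested had log2 fold changes from −0.55 (*Scnn1b*) to 0.19 (*Slc12a2*), with 95% intervals that all included 0.

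In water, limma tested 11046 genes and called 1, *Dus2* (0.00905%), named after its value was seen. It called none of the 8 transport genes tested, and 0 of the 8 had an unadjusted p under 0.05, against 583 of all genes tested (5.28%). The smallest unadjusted p of the 8 tested was for *Cftr*, at 23.8 ± 2.54 TPM in the controls (SD, n = 4) and 20.3 ± 1.86 TPM in knockout-labelled mice (n = 5). It differed by −0.22 on the log2 scale (standard error 0.11, limma p = 0.865 after adjustment, exact permutation p = 0.0635). *Slc26a3* was at −0.23 (standard error 0.16) and *Slc26a2* at −0.29 (standard error 0.16), and the 95% intervals of all 8 included 0. The width of these intervals sets what could be seen: that of *Atp12a* ran from −0.64 to 1.13 and that of *Cftr* from −0.46 to 0.02. *Slc9a3* and *Scnn1g* were below the filter in both tables, and their exact permutation p were 0.563 and 0.738 in water.

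Males of cage a and females of cage b were compared among the water-treated mice because their split could move transport genes. With genotype as a covariate, limma called 4 of 11046 genes (0.0362%), which were *E2f5*, *Gm26992* and the Y-linked *Eif2s3y* and *Ddx3y*. None of the 8 transport genes was called, and 0 of the 8 had an unadjusted p under 0.05, against 754 of all genes tested (6.83%). The log2 fold changes of the 8 tested, male minus female, ranged from −0.08 (*Fxyd4*) to 0.19 (*Slc26a3*), and each 95% interval included 0. *Scnn1g*, below the filter, had 1.00 ± 0.45 TPM in the males (SD, n = 4) and 0.340 ± 0.352 TPM in the females (n = 5; exact permutation p = 0.0476), at a level near the lower limit of the tables. Sex and cage cannot be told apart here.

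**Figure D5:**
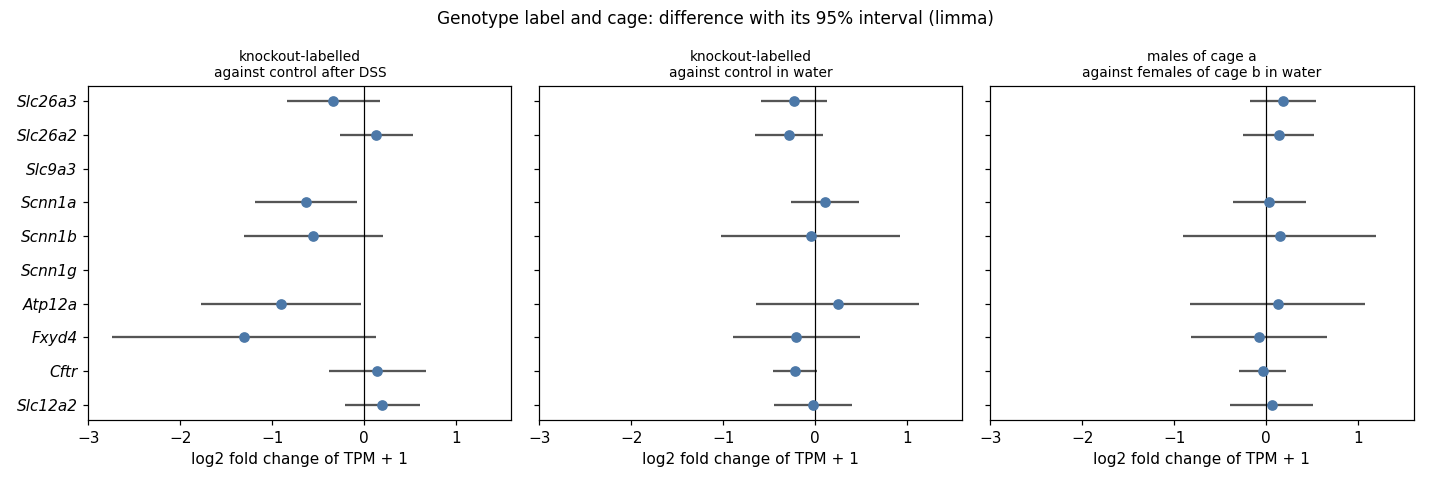
Log2 fold change of TPM + 1 with its 95% interval from limma for the 8 transport genes that passed the filter, for the genotype labels after DSS (4 against 3 mice), the genotype labels in water (5 against 4 mice) and the sexes in water (4 against 5 mice). *Slc9a3* and *Scnn1g* were not tested and have no point. All points were without a call after adjustment.

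Ratios within a mouse were also compared between the labels, over 9 ratios in each table. Of the 18 exact permutation tests, 1 had a p under 0.05 and none passed the adjustment (smallest adjusted p = 0.514). This was the ratio of *Slc26a3* to *Slc26a2* after DSS, which was 0.44 to 0.60 in the 3 controls and −0.05 to 0.26 in the 4 mice labelled knockout on the log2(TPM + 1) scale. The labels did not overlap, and the exact permutation p was 0.0286, the smallest that 3 mice against 4 allow. In water the same ratio had an exact permutation p of 0.754.

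Pairs of transport genes were compared across the mice of a table, with 8 pairs in each. None of the 15 correlations that could be computed passed an adjusted p under 0.05, and treatments were not pooled. After DSS (n = 7 mice), *Cftr* and *Slc12a2* had r = 0.906 (permutation p = 0.00595, adjusted p = 0.0655) and rho = 0.857 (permutation p = 0.0238, adjusted p = 0.240). Leaving out the 2 mice farthest from the median of *Cftr* gave r = 0.633. The same pair in water (n = 9) had r = 0.231 (permutation p = 0.560, adjusted p = 0.600) and rho = 0.167. *Scnn1a* and *Scnn1b* had r = 0.854 after DSS (permutation p = 0.00873, adjusted p = 0.0655), with rho = 0.786 and r = 0.935 without 2 mice. In water (n = 9) they had r = 0.676 (permutation p = 0.0455, adjusted p = 0.136), which rested on 2 mice, since r was −0.14 without them. *Atp12a* and *Fxyd4* had r = 0.708 in water (permutation p = 0.0330, adjusted p = 0.124), which fell to 0.229 without 2 mice. *Slc26a3* and *Slc26a2* had r = 0.589 in water, with rho = 0.0167, and r = 0.613 after DSS, with rho = 0.607 (adjusted p of r = 0.231 in both, by permutation). Taken as deviations from the genotype means, the values after DSS of *Slc26a3* and *Slc26a2* (r = 0.963, permutation p = 0.00298 after adjustment) and of *Cftr* and *Slc12a2* (r = 0.915, permutation p = 0.0461 after adjustment) passed. This permutation treats deviations as exchangeable although each label was centered on its own mean, so these p-values can be too small.

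Likeness was also read over all 16 mice from the deviations of log2(TPM + 1) from the 4 group means, as a description over mice that share tables and cages. The nearest of the other transport genes was *Slc26a2* for *Slc26a3* (r = 0.677), *Scnn1b* for *Scnn1a* (r = 0.658) and *Slc12a2* for *Cftr* (r = 0.565), each also the other way round. Among 7278 genes whose mean reached 5 TPM, the nearest to *Slc26a3* were *Nudt4* (r = 0.871) and *Pmp22* (r = 0.863). Those nearest to *Scnn1a* were *Slc44a4* (r = 0.920) and *Prr13* (r = 0.910), those nearest to *Cftr* were *Tab2* (r = 0.924) and *Fnbp1l* (r = 0.916), and those nearest to *Slc12a2* were *Sox4* (r = 0.886) and *Tlr3* (r = 0.879). For *Fxyd4* they were *Gm4070* (r = 0.859) and *Tmem38b* (r = 0.795), and for *Atp12a* they were *Wsb2* (r = 0.854) and *Kif1bp* (r = 0.789).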

How the data were processed

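Sorted EpCAM+ cells of distal colon, 1 RNA library from each of 16 mice, were measured. The authors sequenced stranded libraries with single reads of 75 bases, quantified transcripts with kallisto and compared genotypes with sleuth, and the labels name mm10. They deposited 1 table per treatment in TPM, scaled within the table, and, per transcript, a natural log mean of the scaled estimated counts. Each table held 28988 transcripts after 385 repeated lines with equal values were dropped, all of which GENCODE M21 (GRCm38) lists under some version. The authors' p-values, q-values and log2 ratios of genotype were not used. By the study's methods the mice were 8 weeks old and DSS was given at 3.5%, with uninjured mice taken at day 0.

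TPM were summed per gene symbol. Genotype labels, and sexes, were compared within a table with limma (version 3.58.1, R 4.3.3, trended variance) on log2(TPM + 1), for all genes whose mean reached 1 TPM, with Benjamini-Hochberg adjustment over them, and single values by an exact two-sided permutation test over mice. Fold changes on this scale understate changes of genes with low TPM. The fit was tested on simulated data. Between tables, which were scaled separately, levels were compared after 1 median-of-ratios rescaling over 9371 genes above 0 in every mouse, without a test. The transport genes named beside the 10 are those with the largest difference in each list, up to 2 in each direction, among those without overlap in either label. The 10 genes and the lists were chosen with earlier results of these data known, although no measured value enters the rule. *Nedd4l* and *Myh11*, which the lists held, were not analysed here.

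Replicate numbers are those of the labels and do not mark shared animals. By the study's methods the genotypes were compared within litters. The labels give no litter, so litter could not enter a fit, and p-values measure the spread between these mice. The alternatives were a pseudocount of 0.1, no filter or a mean of at least 5 TPM, other scalings, a replicate block, cage as a covariate, females alone and leaving out each mouse in turn, and, chosen after seeing the data, leaving out cage c. The number of mice limits the precision, and the depth of each library is unknown. For *Slc26a2*, the authors' mean log counts correspond to 959 counts in water and 2751 after DSS. Its mean levels were 49.4 and 53.1 rescaled TPM, so counts per TPM differed between the treatments. Python 3.11.15, numpy 2.4.6, pandas 2.3.3, scipy 1.17.1 and matplotlib 3.10.9 were used.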

Additional observations from a re-analysis of the deposited data

Results flagged for a closer look

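The level of *Slc9a3* in water-treated mouse replicate 3 labelled knockout, 1.20 rescaled TPM, lay far from the other 4 mice of its group, which were at 0 to 0.000164 TPM. It was the 1 outlying mouse found over 30 sets of values (10 genes in the 3 groups of 4 or 5 mice), by the gap to the nearest mouse as a share of the group's range, and chance flags about 1 in 20 such sets. The 3 DSS-treated controls were too few for this check.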

How the results depend on the processing

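In the controls, *Cftr* and *Slc12a2* were the 2 genes higher without overlap after DSS under every alternative run, and knockout-labelled mice had 2 or 3 such genes. The added gene was *Slc26a2*, as on the TPM as deposited and by percentile rank. The number lower without overlap in the controls was 2 but 0 on the TPM as deposited, 1 with percentile ranks (*Fxyd4*), 1 when scaled to 6 epithelial genes (*Scnn1a*), and 2 to 4 with a mouse left out (4 without DSS-treated control replicate 1, with *Scnn1g* and *Atp12a* added). In knockout-labelled mice it was 4, the same genes, under every alternative run. *Slc26a3*, *Scnn1a*, *Atp12a* and *Fxyd4* stayed lower, and *Cftr* and *Slc12a2* higher, in both labels under every alternative. *Scnn1g* in knockout-labelled mice went from −0.37 up to 0.09 and *Scnn1b* in the controls from −0.04 up to 0.45 across them.

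Same-numbered mice did not deviate together (r from −0.20 to −0.03 over 3 pairs after DSS and −0.08 to 0.09 over 4 pairs in water). With the replicate block, 0 genes were called after DSS and 0 in water, and *Scnn1b* in water turned to 0.0106 (limma adjusted p = 0.999). The count after DSS was 1 and became 0 with a pseudocount of 0.1 and 0 with no filter, and 0 to 3 with a mouse left out. In water it was 1 and became 0 with a pseudocount of 0.1, 4 with no filter and 0 with a mean of at least 5 TPM, and 1 to 2 with a mouse left out. For the sexes it was 4, and 3 to 7 with a mouse left out. The transport genes were called in none of these fits.

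Changes of sign among the transport genes concerned log2 fold changes of 0.24 or less in size. With a pseudocount of 0.1, *Scnn1b* turned to 0.40 for the labels in water and to −0.23 for the sexes. With a mouse left out, the ranges after DSS were −0.00494 to 0.32 for *Slc26a2* and −0.15 to 0.35 for *Cftr*. In water they were −0.47 to 0.28 for *Scnn1b*, −0.0402 to 0.51 for *Atp12a* and −0.11 to 0.12 for *Slc12a2*. For the sexes they were −0.14 to 0.15 for *Scnn1a*, −0.18 to 0.62 for *Scnn1b*, −0.13 to 0.45 for *Atp12a*, −0.41 to 0.0817 for *Fxyd4*, −0.0952 to 0.014 for *Cftr* and −0.0794 to 0.15 for *Slc12a2*. Deviations from the genotype means gave 2 called pairs after DSS, *Slc26a3* with *Slc26a2* (r = 0.963, adjusted p = 0.00298) and *Cftr* with *Slc12a2* (r = 0.915, adjusted p = 0.0461), where the fit without them called 0, and the permutation treats such deviations as exchangeable. Across all alternatives, 330 of 357 fold changes of the transport genes kept their sign and side of the threshold, and the smallest adjusted p was 0.722. The cause of these changes was not tested.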
